A study of Mus musculus with 30 samples.

Results

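The solute carriers are the genes whose symbol begins with Slc, and they were followed in liver and skeletal muscle of male C57BL/6J mice on 3 diets. Members were taken by symbol from the platform annotation of Illumina MouseRef-8 v2 bead arrays, without the mitochondrial Slc25a carriers, and a probe was kept in a tissue when its detection p-value was under 0.02 on at least 5 of the 15 arrays. By symbol, 417 of 25697 probes matched, for 287 of 16593 genes. In liver 165 probes of 125 genes were kept, in muscle 135 probes of 107 genes, and in at least 1 of the tissues 192 probes of 143 genes. The other 144 genes were kept in neither. A gene kept for only a few arrays can be near background, and the values at the limit of the rule show this. The 2 liver probes detected on exactly 5 arrays (Slc16a6 and Slc4a8) had median signals of 165.7 and 166.2, and the 6 detected on exactly 4 had 160.9 to 177.1. In muscle the 3 probes at 5 arrays had median signals of 138.6 to 146.6 and the 9 at 4 arrays 131.2 to 146.7. The carrier symbol does not always mean a carrier: Slc4a1ap, Slc7a6os, Slc9a3r1 and Slc9a3r2 encode other proteins and were counted as members because the rule is one of symbols.

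One group of mice ate the standard AIN-93G diet containing SRT2104, a synthetic compound that activates the deacetylase SIRT1, with 1.33 g in each kg of chow and so a daily dose near 100 mg for each kg of mouse. A second group was on 40% calorie restriction (CR) of that diet, and the third ate it freely (SD). Each tissue and diet had 5 arrays. All the mice were male and of a single inbred strain, and the labels give a start of every diet at 28 weeks of age. The CR labels give an age of 41 weeks and a diet of 14 weeks, and the design notes and the methods give the same for mice of every diet, while the labels of the SRT2104 and SD groups place sampling at the end of life. The sources thus differ on the age of those groups. The muscle that was sampled is not named in the labels, and no source says that equal replicate numbers in liver and muscle are the same mouse, although the signal columns of both tissues carry the same set of numbers.

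The tissues bore their labels. In muscle 11 of 12 fibre markers were kept, in liver 11 of 14 hepatocyte markers, and in liver 1 of the 12 fibre markers, Actn3. Between 26.7% and 43.3% of probes were detected on an array. In liver each array correlated with the others of its group at a median of 0.973 to 0.993. In muscle SRT2104 replicate 3 (0.903) and CR replicate 3 (0.811) stood apart. SD replicate 1 (0.966) was close to CR replicate 2 (0.964), and the remaining arrays reached 0.974 to 0.992. SRT2104 replicate 3 also held a mean level of 14.57 for the 7 hepatocyte markers kept in muscle, against 7.17 to 8.24 on the other SRT2104 arrays, 7.21 to 8.44 under CR and 6.87 to 7.34 on SD. The counts in muscle and the carriers called there are given over all 15 arrays and over 12, without SRT2104 replicate 3, CR replicate 3 and SD replicate 1. These 3 were chosen because earlier work on these data found them outside the paper's values, and not by the correlations above. Levels are in log2 units, and a difference between diets reads as a log2 fold change.

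Solute carriers are membrane proteins that move a small molecule or ion down its gradient or couple it to another. Hepatocytes use them to take up amino acids, fatty acids, bile acids and glucose and to export glucose, metals and organic cations, whereas muscle fibres take up glucose, creatine and taurine. Metal carriers come as pairs of directions: the Slc30 zinc carriers move zinc out of the cytosol, Slc39 carriers move zinc and related metals into it, and Slc40a1 (ferroportin) exports iron. Sugar carriers of the Slc2 family let glucose through by its gradient, and Slc37a4 carries glucose 6-phosphate into the endoplasmic reticulum, where glucose is released.

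Promoter sequences of 4 carriers that passed a test in liver are shown, since Slc30a1 is known to respond to zinc through metal response elements and GC boxes are common near gene starts. They come from RefSeq on build GRCm38.p6 (225 of the 287 symbols matched) and run over the 250 bases before the start, 5′ to 3′. In Slc30a1 and Slc30a10 the capitals mark letters TGCACNC or TGCGCNC, the core of the metal response element, and in Slc2a1 and Slc37a4 they mark GGGCGG, the GC box. Both strands were searched, and overlapping matches were kept.
Slc30a1, chr1:191906531-191906780, plus strand: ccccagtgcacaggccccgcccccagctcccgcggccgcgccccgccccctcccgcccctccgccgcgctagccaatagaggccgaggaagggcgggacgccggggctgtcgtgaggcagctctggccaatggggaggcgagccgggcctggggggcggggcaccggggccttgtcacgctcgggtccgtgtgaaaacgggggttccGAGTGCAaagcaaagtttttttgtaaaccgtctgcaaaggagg
Slc30a10, chr1:185454598-185454847, plus strand: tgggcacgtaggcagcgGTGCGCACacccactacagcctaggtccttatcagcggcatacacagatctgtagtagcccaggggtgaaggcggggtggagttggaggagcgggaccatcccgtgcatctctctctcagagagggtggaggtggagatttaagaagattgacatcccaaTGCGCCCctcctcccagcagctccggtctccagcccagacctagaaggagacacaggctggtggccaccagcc
Slc2a1, chr4:119108495-119108744, plus strand: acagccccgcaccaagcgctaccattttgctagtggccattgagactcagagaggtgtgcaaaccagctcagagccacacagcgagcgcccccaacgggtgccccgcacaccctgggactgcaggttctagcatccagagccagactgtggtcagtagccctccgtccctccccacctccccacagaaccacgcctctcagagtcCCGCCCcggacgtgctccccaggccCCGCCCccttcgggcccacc
Slc37a4, chr9:44396849-44397098, plus strand: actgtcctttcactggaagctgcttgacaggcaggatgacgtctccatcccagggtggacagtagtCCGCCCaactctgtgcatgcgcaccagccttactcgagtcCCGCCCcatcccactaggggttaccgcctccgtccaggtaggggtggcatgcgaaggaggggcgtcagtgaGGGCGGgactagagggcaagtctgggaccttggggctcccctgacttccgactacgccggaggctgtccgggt
The metal response letters were found once in Slc30a1, 43 bases before the start, and 3 times in Slc30a10. They were not particular to metal carriers, as Slc2a1 and Slc37a4 also held 1 each, not marked above. The GC box letters were found 2 times in Slc2a1 and 3 times in Slc37a4, and Slc30a1 held 5. Slc37a4 has 3 starts in the table, and the one with the most GC boxes is shown, the others having 1 and 0. Of all 32851 promoters, 21.4% held the metal response letters and 32.7% the GC box, against 25% and 49.7% of the 292 promoters of members, 1 gene having several starts in some cases. A match is a description of letters and not a site that was measured.

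Substrate groups differed in how many members the tissues kept. Of the 56 amino acid carriers on the array 21 were kept in liver and 19 in muscle, and of the 28 metal carriers 20 in liver and 17 in muscle. In the other large groups liver kept 14 of 35 carriers of bile acids and organic ions, 13 of 19 of nucleosides and nucleotide sugars, 15 of 32 of vitamins, choline, acetyl-CoA, inositol and peptides, 12 of 33 of ions, 10 of 23 of sugars, 7 of 28 of monocarboxylates and related acids, 4 of 6 of fatty acids and 5 of 23 with other or no known substrate. Muscle kept 9, 11, 12, 12, 9, 5, 2 and 7 of these. Because the rule uses detection, these numbers describe the members and were not tested.

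SRT2104 changed few solute carriers in liver. Against SD, 2 of 125 rose and 4 fell at an adjusted p under 0.05 (limma), which is 4.8% of the carriers beside 3.33% of all 7725 genes (1.54% rising and 1.79% falling). For 8 carriers the 2 diets did not overlap, as for 5% of all genes. At an unadjusted p under 0.05, 14 were higher and 17 lower, and the share of all genes at that cut was not counted. The median change of the members was 0.014, beside -0.0023 over all genes. The 6 that passed are a sodium-coupled glutamine carrier (Slc38a3), a lysosomal sialic acid exporter (Slc17a5), a zinc exporter (Slc30a1), a manganese exporter (Slc30a10), the glucose carrier GLUT1 (Slc2a1) and the sodium-potassium-chloride cotransporter NKCC1 (Slc12a2). In the same livers the mean level of the 11 hepatocyte markers ran from 14.72 to 15.21 on SRT2104, against 14.27 to 14.71 on SD, with 7 of the 11 higher past the threshold, and its part in the changes was not tested. In a bulk sample fewer cells of a type and less RNA per cell cannot be told apart.

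Slc38a3, which takes up glutamine and histidine, was the member that rose most. Its levels were 12.61, 12.96, 13.36, 12.87 and 12.95 on SRT2104, against 12.13, 11.95, 12.40, 12.06 and 12.18 on SD. Every SRT2104 liver was above every SD liver. The change was 0.81 ± 0.11 (standard error; 1.75-fold; adjusted p = 0.0021). Slc17a5 had 9.04, 8.97, 8.99, 9.11 and 8.83 on SRT2104, against 8.75, 8.66, 8.77, 8.43 and 8.77 on SD, a rise of 0.31 ± 0.08 (adjusted p = 0.043). The lowest SRT2104 liver still lay above the highest SD liver. Without any 1 of 10 of the 15 arrays the adjusted p of Slc17a5 passed 0.05, at up to 0.095.

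Both metal exporters fell. Slc30a1, which moves zinc out of the cell and is the carrier of the first promoter above, had 8.57, 8.48, 8.72, 8.46 and 8.23 on SRT2104, against 9.16, 8.92, 8.97, 8.94 and 8.97 on SD. The levels on SRT2104 lay below all those on SD, and the gene fell by 0.50 on the log2 scale (standard error 0.09, adjusted p = 0.0067). Slc30a10, a manganese exporter of liver and bile, had 9.50, 9.77, 9.72, 9.97 and 9.17 on SRT2104 and 10.38, 10.08, 10.16, 10.17 and 10.24 on SD, without overlap. It fell by 0.58 on the log2 scale (standard error 0.13, adjusted p = 0.023), and without SRT2104 replicate 1 its adjusted p was 0.053. Of the 20 metal carriers kept in liver these were the 2 that passed.

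GLUT1, the Slc2a1 gene, had 8.92, 8.69, 8.71, 9.07 and 8.80 on SRT2104, against 9.12, 9.81, 9.26, 9.78 and 9.07 on SD. The SD livers of replicates 2 and 4 were higher than the others, and the groups only just did not overlap. The fall was 0.57 ± 0.14 on the log2 scale (adjusted p = 0.037), and the call was lost without any 1 of 7 arrays, with an adjusted p of up to 0.090. Slc12a2 had 9.24, 9.42, 9.15, 9.53 and 9.13 on SRT2104, against 10.02, 9.48, 9.69, 9.55 and 9.81 on SD. Its levels overlapped, with 1 SRT2104 liver above the lowest SD liver. It fell by 0.42 on the log2 scale (standard error 0.10, adjusted p = 0.034), a call lost without any 1 of 5 arrays, with an adjusted p of up to 0.089. The dimmer probe of Slc12a2 gave -0.13 and did not pass. The calls of Slc38a3 and Slc30a1 held without any 1 of the 15 arrays.

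**Figure D1:**
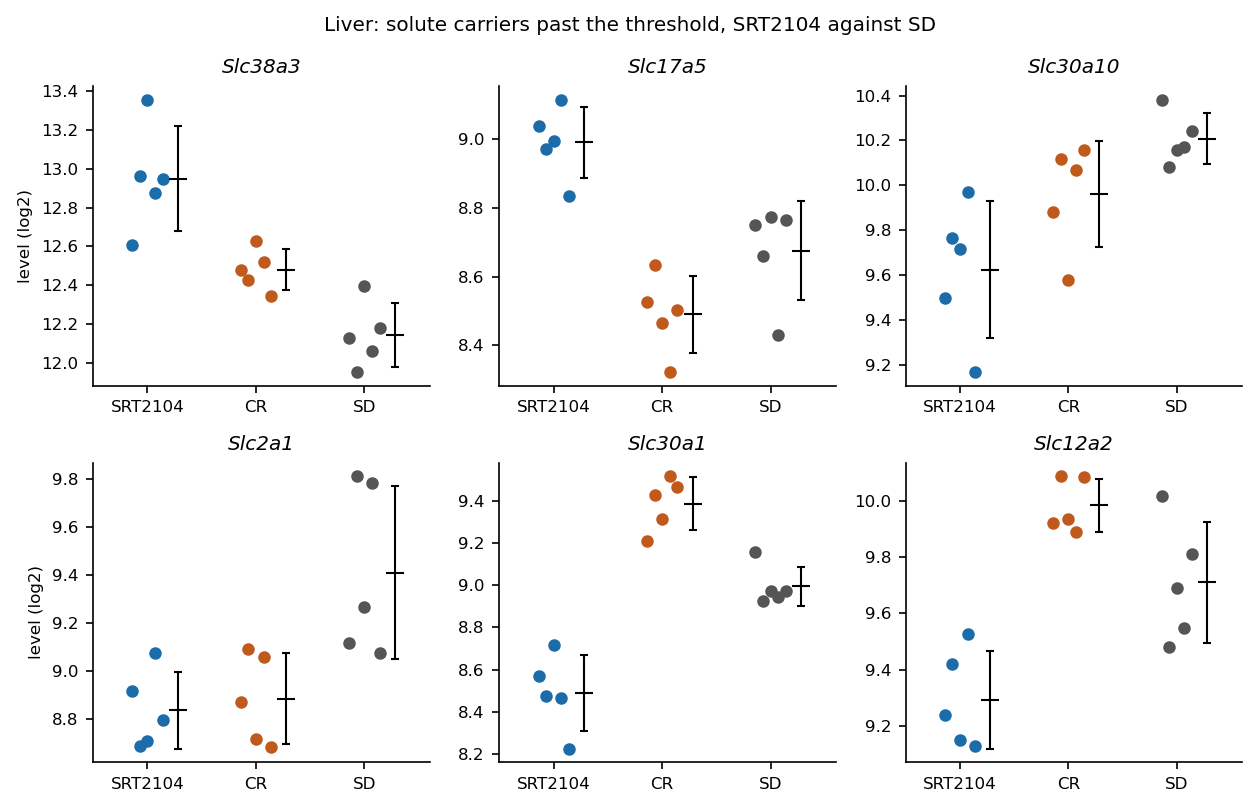
Levels (log2) of the 6 solute carriers past the threshold in liver for SRT2104 against SD, with SRT2104, CR and SD from left to right. Points are arrays, 5 per diet, and bars are mean and standard deviation; Slc38a3 and Slc17a5 lie higher on SRT2104 than on SD, and the other 4 lie lower.

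CR changed more of them. Against SD 22 of 125 rose and 15 fell (29.6%, against 27.6% of all genes, 14% rising and 13.6% falling), and 17 did not overlap, as 16.3% of all genes did not. The median change was 0.059 in the carriers and 0.0049 over all genes. The share called is near that of all genes, and the carriers are described below by what they carry. The 11 hepatocyte markers had a mean level of 14.65 to 14.89 under CR and 14.27 to 14.71 on SD, with 5 of 11 higher past the threshold. Of 8 macrophage markers 3 were lower (C1qb, Clec4f and C1qa), with a mean level of 8.68 to 9.04 under CR and 8.84 to 9.28 on SD, and of 2 red blood cell markers Alas2 was lower, by 0.69. Of 5 matrix markers 1 (Dcn) and of 2 bile duct markers 1 (Sox9) were higher, by 0.31 each. The part of these in the carriers was not tested. Of the 22 rises 2 (Slc2a4 and Slc27a1) were of carriers that the detection rule kept only through the CR arrays, so that these had to lie higher under CR.

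Among the sugar carriers 4 of 10 rose and 1 fell. Slc37a4, the glucose 6-phosphate carrier of the endoplasmic reticulum, had 9.69, 9.91, 10.01, 9.86 and 9.91 under CR, 9.23, 9.16, 8.99, 9.38 and 8.81 on SRT2104 and 8.89, 8.98, 8.52, 9.62 and 9.30 on SD. The CR livers were above all the others, and the change against SD was 0.81 ± 0.16 (1.76-fold; adjusted p = 0.0013). Slc2a2, the GLUT2 carrier that lets glucose in and out of hepatocytes, rose by 0.31 ± 0.09 (adjusted p = 0.021), with 12.82 to 13.23 under CR and 12.51 to 12.98 on SD. Slc50a1 rose by 0.29. Slc2a4 (GLUT4) was at least 1.08-fold higher on a dim probe, kept through CR alone, that was detected in all CR livers and in no SD liver. The one that fell was GLUT1, with 8.87, 9.09, 8.71, 9.06 and 8.68 under CR and the SD levels given above, which it overlapped. It fell by 0.53 on the log2 scale (standard error 0.14, adjusted p = 0.012).

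Amino acid carriers held 3 rises and 1 fall among 21. Slc38a4, which takes up neutral and cationic amino acids, had 11.22, 11.46, 11.59, 11.69 and 11.96 under CR and 11.50, 11.35, 10.95, 10.88 and 11.24 on SD, a change of 0.40 ± 0.13 (adjusted p = 0.034) with overlap. Slc6a13, which carries GABA and taurine, rose by 0.39 ± 0.09 and Slc38a3 by 0.34 ± 0.11. The neutral amino acid exchanger Slc1a4 fell by 0.28. Slc1a2, a glutamate carrier, had a change of 0.36 with an adjusted p of 0.0503 and did not pass. In the fatty acid group Slc27a5, which also joins bile acids to coenzyme A, had 14.14, 13.99, 14.00, 14.24 and 14.12 under CR and 13.69, 13.94, 13.77, 13.73 and 13.51 on SD, an increase of 0.37 ± 0.08 with no overlap. Slc27a1 was higher by 0.30 on a probe detected in 5 CR, 1 SRT2104 and 2 SD livers, and so kept through CR. Slc10a1, the sodium bile acid carrier NTCP of the sinusoidal membrane, had 8.42, 8.69, 8.39, 8.65 and 8.62 under CR, against 8.52, 7.82, 7.79, 7.86 and 8.14 on SD. The one SD liver that overlapped was replicate 1. The change was 0.53 ± 0.15 (adjusted p = 0.016).

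Within organic ions, Slc17a8 (VGLUT3, a vesicular glutamate carrier) had 10.46, 10.52, 10.36, 10.52 and 10.55 under CR, 9.71, 9.79, 8.76, 9.44 and 9.50 on SRT2104 and 10.30, 9.77, 10.11, 9.43 and 9.99 on SD. CR was above SD in every liver, by 0.57 ± 0.17 (adjusted p = 0.021, and 0.053 without SD replicate 4). Slc17a2 and Slc17a4, of the same family of anion carriers, went apart. Slc17a2 rose by 0.40 ± 0.11, with 12.40 to 12.93 under CR and 12.09 to 12.49 on SD. Slc17a4 fell by 0.46 on the log2 scale (standard error 0.16, adjusted p = 0.043), with 9.07, 8.83, 9.15, 9.45 and 9.25 under CR and 9.98, 9.37, 9.74, 9.08 and 9.88 on SD, which overlap through SD replicates 2 and 4. The phosphate carriers of the Slc20 family split: Slc20a1 rose by 0.70 ± 0.14 (8.45 to 8.80 under CR and 7.38 to 8.19 on SD) and Slc20a2 fell by 0.34 (10.71 to 10.97 under CR and 10.89 to 11.46 on SD). The zinc exporter Slc30a1 rose by 0.39 ± 0.09 under CR, with 9.21, 9.43, 9.31, 9.52 and 9.46, all above SD, while the metal importer Slc11a2 (DMT1) rose by 0.33. The 3 metal carriers that fell were all of the Slc39 family: Slc39a11 fell by 0.71, Slc39a7 by 0.35 and Slc39a8 by 0.31. Slc39a11 was 9.97, 9.62, 9.79, 9.71 and 9.92 under CR and 10.38, 10.51, 10.65, 10.46 and 10.55 on SD.

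The strongest falls were of Slc8b1 and Slc19a2. Slc8b1, the sodium and calcium exchanger NCLX of the mitochondrial inner membrane, had 9.47, 9.42, 9.44, 9.29 and 9.09 under CR, 10.75, 10.68, 10.68, 10.18 and 10.84 on SRT2104 and 11.46, 10.63, 10.53, 10.40 and 10.59 on SD. CR was below each of the other 10 livers, and the change against SD was -1.38 ± 0.17 (adjusted p = 2.3e-05). Slc19a2, a thiamine carrier, fell by 0.86 ± 0.14 with 11.57, 11.63, 11.44, 11.70 and 11.38 under CR and 12.39, 12.72, 12.35, 12.20 and 12.34 on SD. Of the 15 carriers of vitamins, choline, acetyl-CoA, inositol and peptides 4 fell and none rose: Slc19a2, the lysosomal peptide carrier Slc15a3 (by 0.68), the lysosomal Slc49a4 (at least 1.17-fold lower, since no CR array detected it) and the proton-coupled folate carrier Slc46a1 (by 0.26). The Golgi carriers of activated sulfate and nucleotide sugars moved both ways, with Slc35b3 and Slc35c2 down by 0.57 and 0.43 and Slc35a1 and Slc35c1 up by 0.32 and 0.26. The rise of Slc35a1 was not seen on its dimmer probe, which gave 0.0041. Slc29a1, a nucleoside carrier, rose by 0.34. The 3 of 4 proteins of the not-a-carrier group that rose were the scaffolds Slc9a3r2 (by 0.34) and Slc9a3r1 (by 0.31) and Slc4a1ap (by 0.20). With each of the 15 arrays left out in turn, the call for CR was lost in 10 fits for Slc4a1ap, in 9 for Slc29a1, in 7 for Slc17a4, in 6 each for Slc38a3, Slc2a4 and Slc1a4, in 5 for Slc38a4 and Slc46a1, in 3 for Slc2a2, Slc27a1 and Slc50a1, in 2 for Slc35c1 and Slc9a3r1 and in 1 for Slc17a8 and Slc17a2. The calls of the other carriers named for CR held in every such fit.

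**Figure D2:**
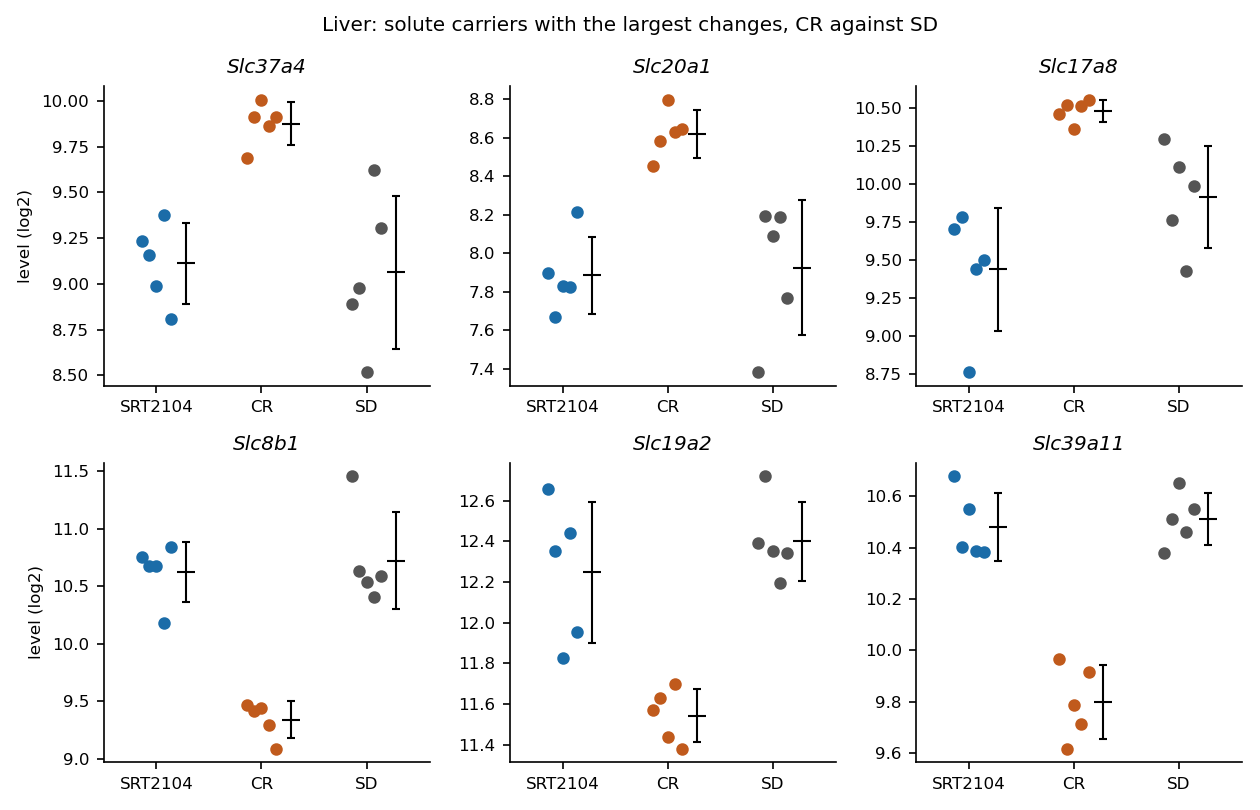
Levels (log2) of 3 solute carriers that rose and 3 that fell in liver with CR against SD, shown with SRT2104, CR and SD from left to right. Points are arrays and bars are mean and standard deviation over 5; for Slc8b1 and Slc39a11 all CR livers lie below every other liver.

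**Figure D3:**
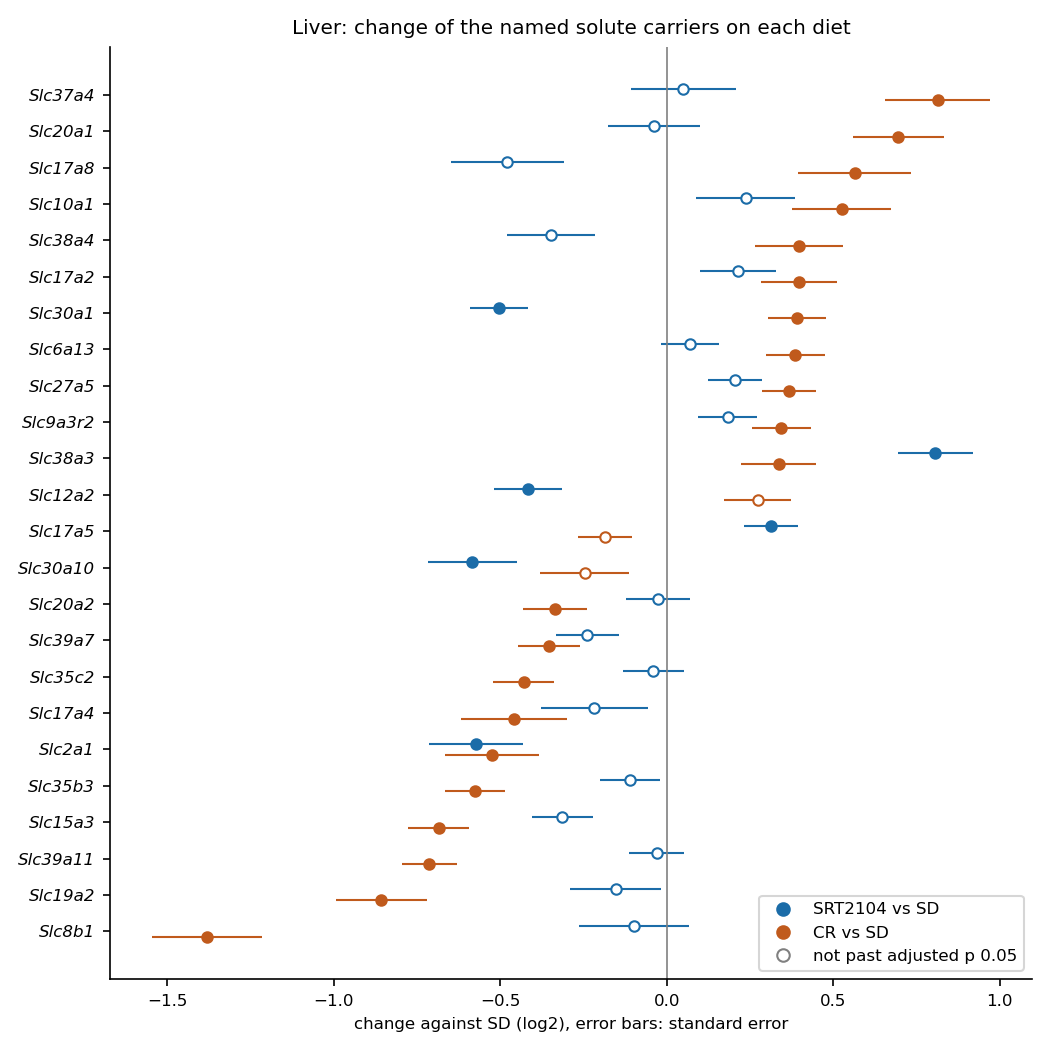
Change against SD (log2) of the named solute carriers in liver, with SRT2104 in blue above CR in orange for each gene. Bars are standard errors, and filled points pass an adjusted p of 0.05, as Slc30a1 does for both diets, in opposite directions.

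Set directly against each other, SRT2104 and CR livers differed in 44 of 125 carriers (35.2%, against 28.2% of all genes, 13.6% higher and 14.7% lower), 21 higher on SRT2104 and 23 lower, and 34 did not overlap, as 22.7% of all genes did not. Of the markers, 2 of 11 of hepatocytes (Alb and Serpina1a) and 1 of 8 of endothelial cells (Tek) were lower on SRT2104. Higher were 1 of 8 macrophage markers (C1qb) and 1 of 2 red blood cell markers (Alas2). The part of these markers was not tested. Since both comparisons with SD share the SD arrays, and this one shares its arrays with both, the 3 are not independent. Carriers of vitamins and peptides were higher on SRT2104 in 7 of 15 and lower in none, among them Slc5a6 (biotin and pantothenate), by 0.73 ± 0.13, with 10.11, 9.86, 9.68, 9.45 and 10.35 on SRT2104 and 9.11, 9.27, 9.26, 9.12 and 9.02 under CR. Sugar carriers were lower in 4 of 10 and higher in none, with Slc37a4 at -0.76 ± 0.16. The zinc exporter Slc30a1 was lower by 0.90 on SRT2104 (adjusted p = 3.6e-06), Slc17a8 by 1.04, Slc38a4 by 0.74 and Slc20a1 by 0.73. The zinc importer Slc39a4 was higher by 0.72, Slc19a2 by 0.70, Slc39a11 by 0.68 and Slc8b1 by 1.28. Slc39a4 averaged 9.70 ± 0.34 on SRT2104 and 8.98 ± 0.26 under CR (standard deviation, n = 5 each), with 1 SRT2104 liver below the highest CR liver.

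Several well known liver carriers did not pass, by their brightest probe, in either comparison of a diet with SD. The glutamine carrier Slc38a2 had 11.92, 12.55, 13.35, 12.81 and 13.22 on SRT2104 and 11.05, 12.41, 12.46, 13.02 and 12.20 on SD, a difference of 0.54 with a standard error of 0.30 (adjusted p = 0.33). The SD livers alone spanned 11.05 to 13.02, and a change of this size was not detectable against that spread. A dimmer probe of Slc38a2 fell under CR by 0.65 (adjusted p just below the threshold, at 0.04997), where the brightest gave -0.20. On SRT2104 that dimmer probe gave -0.064. The cationic amino acid carrier Slc7a2 differed from SD by -0.11 ± 0.15 on SRT2104 and -0.050 ± 0.15 under CR. Ferroportin (Slc40a1) differed by 0.30 ± 0.17 and 0.41 ± 0.17 (adjusted p = 0.35 and 0.080), with SD livers at 13.48 and 13.21 in replicates 1 and 5 and at 12.46, 12.45 and 12.43 in the others. The fatty acid carrier Slc27a2 differed by 0.12 ± 0.09 on SRT2104 and 0.17 ± 0.09 under CR, the cation exporter Slc47a1 by 0.062 ± 0.10 and 0.12 ± 0.10. Dimmer probes of Slc47a1 had the opposite sign, with -0.25 and -0.31 on SRT2104 and -0.097 and -0.13 under CR. The metal importer Slc39a14 differed from SD by -0.0021 and 0.045, with a standard error of 0.14. The lactate carrier Slc16a1 and the citrate carrier Slc13a5 were not kept in either tissue.

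In muscle 4 of 107 carriers rose with SRT2104 against SD and 1 fell (4.67%, against 9.31% of all 7752 genes, 3.99% rising and 5.33% falling), and 14 did not overlap, as 17.2% of all genes did not. At an unadjusted p under 0.05, 18 were higher and 5 lower, and over 12 arrays 29 and 8. The share of all genes at that cut was not counted, so this lean to rises is not read as particular to carriers. Over the 12 arrays 22 rose and 5 fell (25.2%, against 30.7% of all genes, 18.9% rising and 11.8% falling), and 27 did not overlap, as 34.4% of all genes did not. Of these 22, the detection rule kept 2 (Slc12a9 and Slc4a8) only through the SRT2104 arrays. The median change was 0.11 in the carriers and 0.071 over all genes, and over 12 arrays 0.080 and 0.074. Of the 8 fibroblast and matrix markers kept in muscle, none rose and 3 fell, with mean levels of 8.32 to 8.64 on SRT2104, against 9.05 to 9.44 on SD, and over the 12 arrays 5 fell. The 3 adipocyte markers kept of 7 ran from 7.24 to 7.53 on SRT2104 and from 8.17 to 8.69 on SD, with none past the threshold, and the 6 macrophage markers kept of 12 from 7.54 to 7.79 and from 7.85 to 8.09, with 2 lower. Over 12 arrays these counts were again 0 and 2. Neither these nor the matrix markers overlapped between the diets. Of 7 hepatocyte markers none passed over 15 arrays and 4 rose over the 12 (Serpina1b, Apoa1, Ahsg and Hpx), with a median change of 0.68, and of 9 endothelial markers none and 2 (Esam and Tie1). Of 3 red blood cell markers 1 (Alas2) was higher in both fits. The fibre markers were at 14.51 to 15.06 on SRT2104 and 13.53 to 14.80 on SD, with none past the threshold. The part of any of these in the carriers was not tested.

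The 5 carriers that passed in both fits were the following. Slc35c2, a carrier of the secretory pathway, had 8.93, 8.78, 8.54, 9.10 and 9.14 on SRT2104 and 8.22, 8.17, 8.27, 8.30 and 8.31 on SD, a change of 0.64 ± 0.14 (adjusted p = 0.0093; 0.73 over 12 arrays). Its SRT2104 levels were all above SD. Dimmer probes of Slc35c2 rose by 0.23 and 0.21 over 15 arrays and did not pass. Slc9a8, the sodium-proton exchanger NHE8, had 8.66, 8.59, 8.44, 8.92 and 8.67 on SRT2104, against 8.27, 8.21, 8.09, 8.01 and 7.85 on SD, again without overlap and with a change of 0.57 ± 0.14 (adjusted p = 0.015; 0.67 over 12 arrays). These 2 and Slc45a4 kept their call without any 1 array. Slc35e3, a carrier with no settled substrate, had 8.59 to 9.09 on SRT2104 and 8.26 to 8.33 on SD and rose by 0.52 ± 0.15 (0.49 over 12 arrays). Slc35d1, a nucleotide sugar carrier, had 7.38 to 7.74 on SRT2104 and 6.92 to 7.35 on SD and rose by 0.36 ± 0.11 (0.25 over 12 arrays). These 2 lost the call without any 1 of 8 and of 10 of the 15 arrays. Slc45a4, the one that fell, had 7.63, 7.57, 7.46, 7.60 and 7.62 on SRT2104 and 7.69, 7.86, 7.94, 7.96 and 7.93 on SD, so that every SRT2104 muscle was lower, if narrowly. It fell by 0.30 on the log2 scale (standard error 0.07, adjusted p = 0.017, and by 0.32 over 12 arrays).

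**Figure D4:**
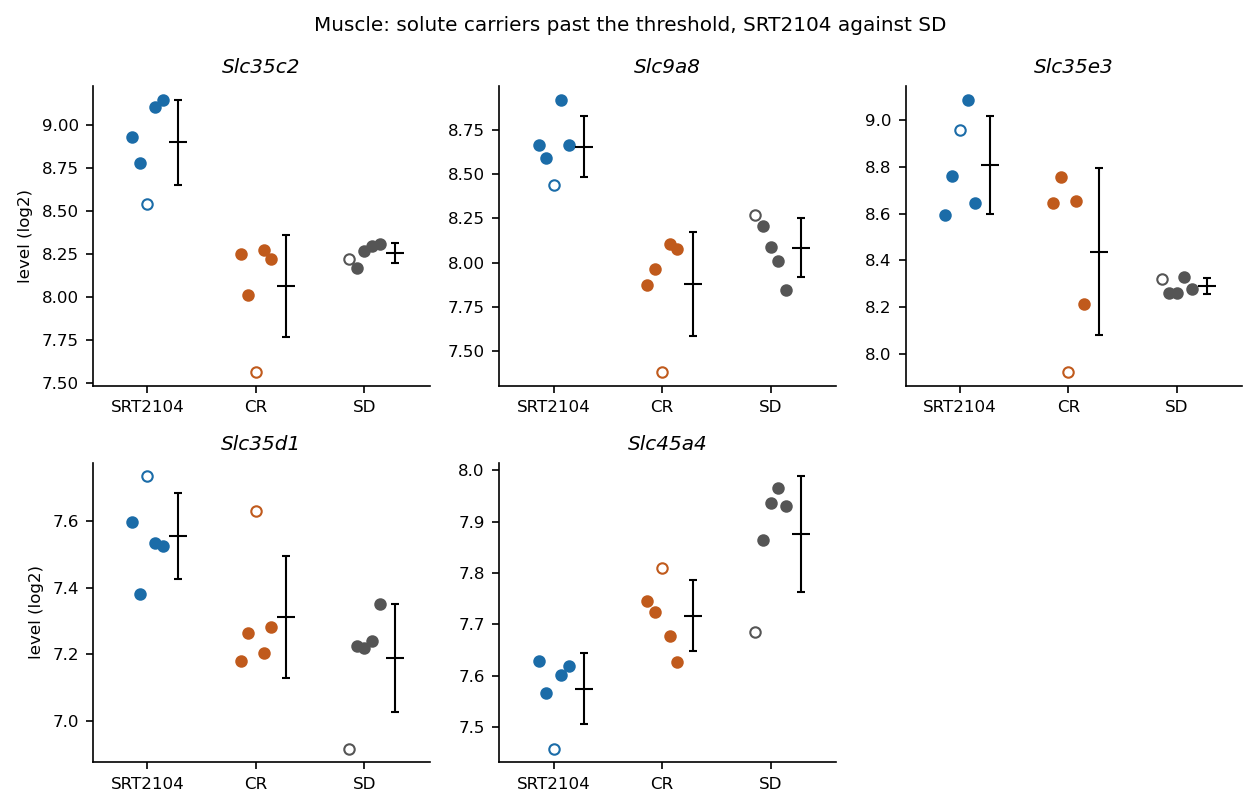
Levels (log2) in muscle of the 5 solute carriers past the threshold for SRT2104 against SD, with SRT2104, CR and SD from left to right. Points are arrays, bars mean and standard deviation over 5, and open circles the 3 arrays left out of the fit over 12; Slc35c2 and Slc9a8 lie above SD on every SRT2104 array.

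Among the 22 carriers called only over 12 arrays, the taurine carrier Slc6a6 fell by 0.59 and Slc44a2, a choline carrier, rose by 0.54. The probes of Slc44a2 disagreed. Its brightest had 11.98, 12.13, 11.20, 12.39 and 12.05 on SRT2104 and 11.53, 11.52, 11.54, 11.67 and 11.65 on SD, while its dimmer probes gave -0.59 and -0.26 over the same 12 arrays. The direction of this gene is therefore not settled here. No solute carrier passed for CR against SD over 15 arrays (limma, where 0.426% of all genes passed, 0.0516% rising and 0.374% falling). At an unadjusted p under 0.05, 4 were higher and 7 lower (8 and 11 over 12 arrays), without a count of all genes at that cut. The methods' test with adjustment also called 0 carriers, where it called 1 of all 7752 genes. For 4 carriers the 2 diets did not overlap, as for 3.28% of all genes. Over 12 arrays Slc46a3 rose by 0.48 (9.06, 9.19, 8.92 and 8.97 in CR replicates 1, 2, 4 and 5, and 8.52, 8.64, 8.64 and 8.43 in SD replicates 2 to 5) and Slc22a23 fell by 0.33, which is 1.87% of the carriers beside 1.91% of all genes (0.439% rising and 1.47% falling), and 11 did not overlap, as 9.29% of all genes did not. GLUT4 (Slc2a4), the carrier that insulin and contraction bring to the muscle cell surface, had 10.97, 10.89, 7.65, 10.69 and 11.25 under CR and 10.81 to 11.09 on SD. CR replicate 3 stood far below the rest. The difference from SD was -0.69 ± 0.50 over 15 arrays and -0.078 ± 0.13 over 12.

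SRT2104 muscles were higher than CR muscles in 5 carriers and lower in 1 (5.61%, against 9.98% of all genes, 5.16% higher and 4.82% lower), and over 12 arrays in 18 and 6 (22.4%, against 33.4%, 20.7% higher and 12.6% lower). In the 2 fits 9 and 28 did not overlap, as 9.48% and 30.1% of all genes did not. Markers of other cells moved too: 2 of 3 adipocyte markers (Lep and Adipoq) were lower in both fits, with mean levels of 7.24 to 7.53 on SRT2104 and 7.93 to 12.07 under CR, where replicate 2 stood apart and the next was 9.45. Of the macrophage markers 2 of 6 were lower in both fits, of the matrix markers 2 of 8 and over 12 arrays 3, and of 9 endothelial markers 1 was higher and over 12 arrays 3. Over 12 arrays 1 hepatocyte marker, Cyp2e1, was lower. Their part in the carriers was not tested. The 6 of both fits were Slc35c2 (0.83 ± 0.14, and 0.80 over 12 arrays), Slc9a8 (0.78 ± 0.14 and 0.71), the lactate exporter Slc16a3 (0.52 ± 0.16 and 0.62), the copper importer Slc31a1 (0.50 ± 0.15 and 0.30), Slc22a23 (0.44 ± 0.09 and 0.40) and, lower, GLUT1 (Slc2a1, -0.44 ± 0.13 and -0.35). Without any 1 of 12 arrays the call of Slc31a1 was lost, without any 1 of 10 that of Slc16a3 and without any 1 of 9 that of Slc2a1. Slc31a1 had 8.33, 8.34, 9.24, 8.33 and 8.22 on SRT2104 and 7.98, 7.92, 7.90, 8.12 and 8.02 under CR. The highest value was that of SRT2104 replicate 3, and without it the diets still did not overlap. Slc38a3 and the scaffold Slc9a3r1 were also far higher on that array, at 10.74 and at 9.62, where no other SRT2104 array was above 8.48 and 7.49.

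The response differed between tissues for few carriers. Of the 89 carriers kept in both, 88 shared a probe. Liver minus muscle, the response to SRT2104 was higher for 1 and lower for 4 (5.68%, against 9.15% of 6534 genes, 4.5% higher and 4.65% lower) and the response to CR higher for 2 and lower for 5 (7.95%, against 4.93%, 2.16% higher and 2.77% lower). Over 12 muscle arrays it was higher for 4 and lower for 14 with SRT2104 (20.5%, against 25.1%, 10.1% higher and 15% lower) and higher for 5 and lower for 6 with CR (12.5%, against 11.3%, 5.22% higher and 6.08% lower). The SRT2104 response of Slc30a1 differed by -0.54 ± 0.15, with -0.50 in liver and 0.036 in muscle, that of Slc35c2 by -0.68 ± 0.17, and that of Slc39a7 by -0.55 ± 0.15. Over all arrays dimmer probes gave -0.35 and -0.16 for Slc35c2 and -0.21 for Slc39a7, none of them past the threshold. Slc45a4 went the other way, at 0.48 ± 0.15. Slc17a8 was at -0.69 (adjusted p = 0.048, and 0.051 over 12 muscle arrays). For CR, Slc8b1 differed by -1.62 ± 0.23, with -1.38 in liver and 0.24 in muscle, and Slc35b3 by -0.90 ± 0.19 (-0.71 on a dimmer probe, which also passed). Slc39a11 differed by -0.74 ± 0.17 and GLUT1 (Slc2a1) by -0.73 ± 0.20, with -0.53 in liver and 0.21 in muscle. Slc35c1 (0.59 ± 0.16, and 0.19 without a call on a dimmer probe) and Slc11a2 (0.41 ± 0.12) differed in the positive direction. Slc49a4 (-0.36, with no CR liver detecting it) lost its call over 12 muscle arrays (adjusted p = 0.070). The 10 other differences passed over 12 muscle arrays too, at -0.56 for Slc30a1, -0.77 for Slc35c2, -0.63 for Slc39a7, 0.50 for Slc45a4, -1.59 for Slc8b1, -0.72 for Slc35b3, -0.70 for Slc39a11, -0.62 for Slc2a1, 0.45 for Slc35c1 and 0.40 for Slc11a2. With 1 of the 30 arrays left out, Slc17a8 lost its call in 24 fits, Slc49a4 in 21, Slc11a2 in 20, Slc45a4 in 9, Slc2a1 in 6, Slc35c1 in 3 and Slc39a7 in 1, and the other 5 in none.

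Between tissues on SD, 67 of the 88 carriers measured in both differed (76.1%, against 72.9% of all genes), 45 higher in liver (32.3% of all genes were) and 22 in muscle (40.6%). Over 12 muscle arrays 47 were higher in liver and 22 in muscle (78.4%, against 79.6% of all genes, 35.7% and 43.9%). These levels are on a scale set over both tissues, so the values are not those of the fits above. Where the brightest probe was kept in only 1 tissue the other gave a bound. Higher in liver were the thiamine carrier Slc19a2 (by 3.52 ± 0.22), Slc38a3 (3.02 ± 0.32), Slc31a1 (2.74 ± 0.12), Slc38a4 (2.61 ± 0.21) and the scaffold Slc9a3r1 (4.00 ± 0.26). Kept in liver and not in muscle were Slc27a2 (at least 57.9-fold higher in liver), Slc27a5 (49.3), Slc6a13 (26.7), GLUT2 (Slc2a2, 25.5), Slc17a2 (20.04) and Slc1a2 (11.3). Higher in muscle were GLUT4 (Slc2a4, at least 19.95-fold, not detected in SD livers), the creatine carrier Slc6a8 (liver minus muscle -4.03 ± 0.19), Slc44a2 (-4.02 ± 0.18), NKCC1 (Slc12a2, -2.95 ± 0.23), the fatty acid carrier Slc27a1 (-2.48 ± 0.29) and the calcium exchanger Slc8a1 (-1.66 ± 0.16). Slc2a3 (at least 3.62-fold) and Slc16a3 (at least 2.20-fold) were kept in muscle only. The difference of GLUT1 was 0.16 ± 0.14 (adjusted p = 0.29).

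**Figure D5:**
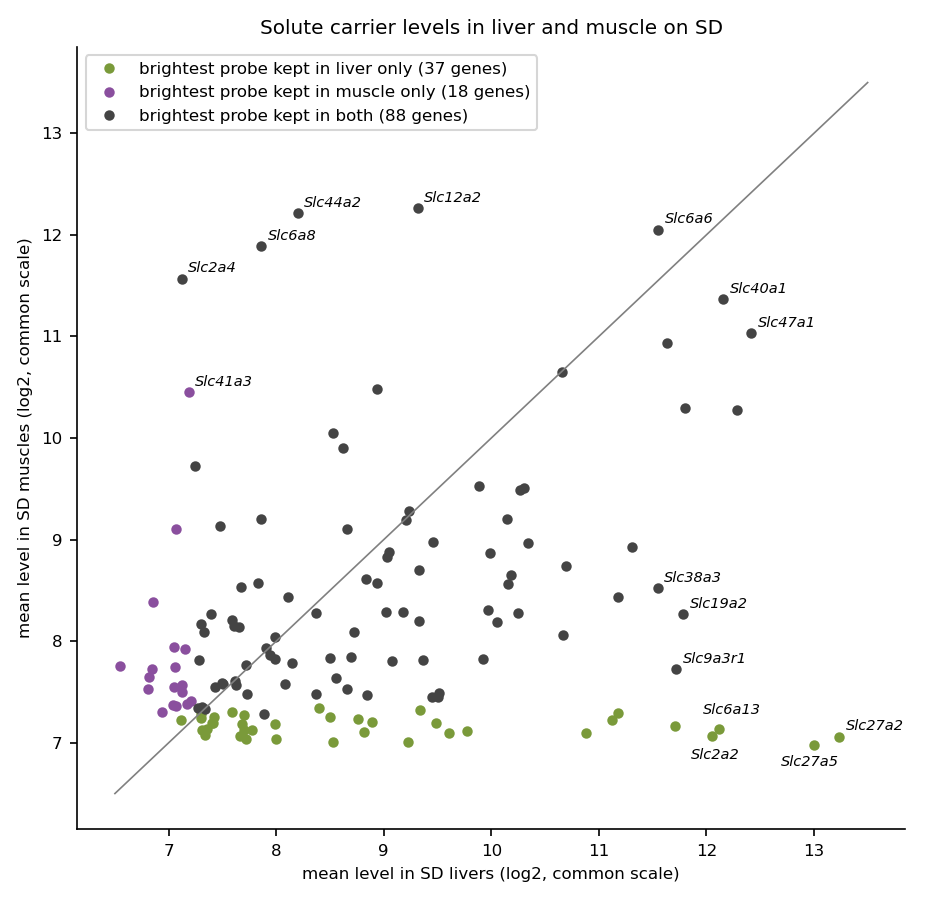
Mean level on SD of each carrier's brightest probe, liver across and muscle up, in log2 units on a scale set over both tissues. The line marks equal levels; Slc27a2 and Slc2a2 lie far to the right at background in muscle, and Slc2a4 and Slc6a8 lie far above the line.

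Other transport genes were followed beside the carriers. Of 23 kept transport partners in liver, such as bile and lipid exporters and water channels, 2 rose with SRT2104, the sterol exporter Abcg8 (0.62) and the conjugate exporter Abcc2 (0.33), and 4 rose, the member Slc9a3r1 among them, and 5 fell under CR, with Slco1a4 up by 0.94, the bile salt exporter Abcb11 down by 0.76 and Aqp8 down by 1.36. Over all genes 3.33% passed with SRT2104 and 27.6% under CR. Set against CR, 7 were higher on SRT2104 and 2 lower, where 28.2% of all genes passed, with Aqp8 higher by 1.55 and Abcb11 by 1.03. In muscle, Aqp1 and Abcb4 rose with SRT2104 against SD in both fits, and of 15 kept none fell, where 9.31% and 30.7% of all genes passed. Of 19 targets of the amino acid response factor ATF4 kept in liver, 1 rose with SRT2104, the asparagine synthetase Asns (by 1.07), and under CR 3 rose and 5 fell, the glutathione-degrading enzyme Chac1 by the most, with a change of -2.03. These targets include the members Slc38a2, Slc6a9 and Slc7a5, and in muscle Slc3a2 too. Against CR, 10 of the 19 were higher on SRT2104, among them Asns by 1.26, Chac1 by 1.31 and the members Slc6a9 and Slc7a5, already counted above. Another 4 were lower, among them Atf3, at -1.48, where 28.2% of all genes passed in either direction. Of 20 kept in muscle, 1 rose with SRT2104 against SD (Shmt2, by 0.55) and 1 fell (Atf4, with a change of -1.29), where 9.31% of all genes passed, and over 12 arrays 5 rose and 1 fell, where 30.7% did. For CR none passed over 15 arrays and 1 fell over 12, where 0.426% and 1.91% of all genes passed. Against CR 2 were higher on SRT2104 over 15 arrays, where 9.98% of all genes passed. Over 12 arrays 8 were higher and 2 lower, where 33.4% did.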

How the data were processed

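RNA of liver and muscle was hybridised to 30 Illumina MouseRef-8 v2 arrays, 5 for each tissue and diet, which the labels number as replicates. The authors deposited linear bead signal intensities from GenomeStudio 1.6.0 and a detection p-value for each, in columns headed by a number, the tissue and the diet. The labels do not give these numbers, so signal columns were used by group. The authors also deposited, for each labelled replicate, a score for each probe, the z-score of the natural log of its signal within the array. Their notes describe removing undetected spots before scaling, but each score column had mean 0 and standard deviation 1 over all 25697 probes. Undetected probes were therefore left out, the scores of each array were scaled again over the kept probes, and they were multiplied by the mean array standard deviation (natural log, 1.19 in liver and 1.03 in muscle) to give log2 units. This gives every array of a tissue the same mean and spread over the kept probes. Before scaling, brightness differed by diet. The kept signal in muscle was at least 272.35 for SD and at most 266.35 for SRT2104, while CR overlapped both. Muscle background was at least 129.5 for SD and at most 122.6 for either other diet. Liver background was at least 134.9 for SD and at most 132.6 for CR, while SRT2104 overlapped both. The part of these differences in the changes between diets was not tested. The levels of liver and muscle were set on 1 scale for their comparison alone.

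Diets were compared with limma 3.58.1 in R 4.3.3 over all kept probes of a tissue (11065 in liver, 10792 in muscle), with Benjamini-Hochberg adjustment over them and a threshold of 0.05. Genes were counted by their brightest kept probe. A probe detected on no array of a group gives a bound, the mean of the brighter group against the lowest detected signal. Tested on simulated data, the liver fit over 11065 probes recovered 67% of changes of 0.5 and 98% of changes of 1, the muscle fit over 15 arrays and 10792 probes 46% and 81%, and that over 12 arrays 66% and 95%. Each simulation gave 100 probes a change of each size in the SRT2104 group alone, with independent normal noise. The data differed, with up to 28.2% of liver genes called and, in muscle, arrays that stood apart, so these percentages need not hold there. Probe names came from the platform annotation, with 1 symbol for 23978 probes and none for 1719. The genes named are the largest changes past the threshold in each comparison, the largest tissue differences and a list of known carriers. Members, gene lists and the 12 arrays were chosen with earlier results of these data known. Substrate groups follow family prefixes, which place Slc8b1 among other carriers. The number of arrays limits the precision. Other scalings, filters, tests, a replicate block and leaving out arrays were tried.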

Additional observations from a re-analysis of the deposited data

Results flagged for a closer look

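Of 87 groups of 5 arrays tested for a single distant array, 4 had one, where chance gives about 1 in 20. In SD liver, replicate 1 stood above the others for Slc30a1 (9.16, others 8.92 to 8.97) and for Slc8b1 (11.46, others 10.40 to 10.63). For Slc8b1 in SRT2104 liver replicate 4 was low (10.18, others 10.68 to 10.84), and for Slc35d1 in CR muscle replicate 3 was high (7.63, others 7.18 to 7.28). Without SD replicate 1 of liver, 7 carriers passed for SRT2104 against SD and 33 for CR against SD.

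The response to a diet differed between liver and muscle, by limma's interaction term, for 12 results, each by its brightest probe. With SRT2104 the difference, liver minus muscle, was -0.68 for Slc35c2, -0.69 for Slc17a8, -0.55 for Slc39a7, -0.54 for Slc30a1 and 0.48 for Slc45a4. With CR it was -1.62 for Slc8b1, -0.90 for Slc35b3, -0.74 for Slc39a11, -0.73 for Slc2a1, -0.36 for Slc49a4, 0.59 for Slc35c1 and 0.41 for Slc11a2. Of these 12, Slc17a8 and Slc49a4 lost the call over 12 muscle arrays.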

How the results depend on the processing

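Of the 195 gene results, none of the 130 called ones changed direction under any alternative that was run. For those not called, direction was not compared. The 130 called ones kept their call 2715 times and lost it 451 times, and those not called gained one 26 times. In liver, the count for SRT2104 against SD (6) was 3 with neqc, 14 with median scaling (7 higher, 7 lower), 16 with no filter on detection (7 higher, 9 lower), 2 with only the 2 diets fitted and 0 with the methods' test, which left 12 higher and 16 lower at an unadjusted p under 0.05. The share of all genes at that unadjusted cut was not counted. With adjustment the methods' test called 8 of all 7725 genes for this comparison. The deposited scores as they are gave 9, 1 higher and 8 lower. For CR against SD (37) the methods' test gave 24, where it called 1477 of all 7725 genes. The direct comparison stayed near 44. The split moved with the scaling, from 22 higher and 15 lower to 19 and 18 with the deposited scores and 15 and 16 with median scaling. In muscle, the count for SRT2104 against SD (5) was 3 with the deposited scores, neqc, quantile normalization or no filter (1 or 2 higher), 15 with only 2 diets, 17 with the methods' test, 27 over 12 arrays and 25 over 13 (without SRT2104 and CR replicates 3). For CR against SD (0) it was 2 over 12 or 13 arrays, and for SRT2104 against CR (6) it was 3 with median scaling, no filter or only 2 diets, 24 over 12 arrays and 20 over 13. The tissue differences were 18 for SRT2104 (5) and 11 for CR (7) over 12 muscle arrays, and 2 for SRT2104 with the deposited scores. In muscle the methods' test called 1441 of all 7752 genes for SRT2104 against SD. Beyond the main fits, all genes were counted only over 12 muscle arrays, as given above, and with the methods' test. They were not counted for the other alternatives here or below. The cause of these shifts in the counts was not tested.

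Leaving out 1 array gave 3 to 8 for SRT2104 against SD in liver (3 without SRT2104 replicate 1 or 3), 29 to 38 for CR, 35 to 49 for SRT2104 against CR, 3 to 14 for SRT2104 against SD in muscle (3 without SD replicate 2, 3 or 4 or SRT2104 replicate 4, 14 without CR replicate 3), 0 for CR in muscle, 3 to 12 for SRT2104 against CR in muscle (3 without SD replicate 3, SRT2104 replicate 1, 2 or 4 or CR replicate 1 or 5, 11 without SRT2104 replicate 3, 12 without CR replicate 3), 2 to 14 for the SRT2104 tissue difference (2 without muscle SRT2104 replicate 4, 8 without muscle SRT2104 replicate 3, 14 without muscle CR replicate 3), 4 to 9 for that of CR (4 without liver SD replicate 2, 3 or 4 or CR replicate 1, 2, 3 or 5) and 63 to 67 between tissues. Same-numbered arrays correlated at -0.25 to 0.31 within liver and -0.13 to 0.22 within muscle. Those of the same diet in liver and muscle correlated at -0.12 to 0.36, above 0.1 in 5 of 15 pairs, 4 of them on SD. These values do not settle whether equal numbers in liver and muscle mark the same mouse. The main fits took all arrays as independent. With the replicate block the counts were 5, 37 and 45 in liver, 5 (all higher), 0 and 7 in muscle, and 5 and 5 for the tissue differences. Among the calls it lost were Slc45a4 in muscle (adjusted p = 0.0505), Slc17a5 and Slc12a2 with SRT2104 in liver (0.064 and 0.063), Slc1a4 and Slc4a1ap under CR (0.0506 and 0.051), and the tissue differences of Slc17a8, Slc11a2, Slc2a1 and Slc49a4 (0.11, 0.098, 0.086 and 0.071). Probes near the detection limit, such as those at 5 arrays, limit what dim carriers can show.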
